A study of Homo sapiens with 12 samples.

Results

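The 41 genes described here encode the autophagy machinery and its cargo receptors, from the kinase complex that starts an autophagosome to the adaptors that bring cargo to it. They were chosen as a list of gene symbols, with no measured value in the rule but with earlier results of these data known. All 41 were found among the 58288 gene IDs of the count table. RNA was measured in HK2 cells, a cell line established from the proximal tubule of the human kidney and grown in DMEM with fetal bovine serum. There were 4 groups of 3 libraries: nontarget and FLCN knockdown cells harvested below 30 passages (short-term), and both kinds harvested above 120 passages (long-term). Nontarget cells (shControl, genotype WT in the labels) carried a control short hairpin RNA (shRNA) and knockdown cells one against FLCN, so every library came from shRNA-bearing cells. The study describes its stable lines as clones without assigning libraries to them, so the shRNA and the clone that carries it cannot be told apart. Nor can time in culture and clone. The libraries are labelled as biological replicates without saying whether cultures were grown apart, so p-values measure the spread between these samples.

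Autophagy wraps cytoplasm in a double membrane, the autophagosome, and delivers it to the lysosome. The ULK1 kinase complex responds to nutrient signals from mTORC1, a class III phosphatidylinositol 3-kinase complex marks the site, lipid is supplied by ATG9A vesicles and ATG2 transfer proteins, and ubiquitin-like proteins of the ATG8 family (the LC3 and GABARAP proteins) are joined to the membrane, where receptors such as SQSTM1 (p62) bind them. FLCN, the Birt-Hogg-Dubé syndrome tumor suppressor, acts on the Rag GTPases at the lysosome, and its loss is known to let the transcription factors TFEB and TFE3 into the nucleus, where they drive lysosomal and autophagy genes, SQSTM1 among them.

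The libraries held 5825779 to 8991051 counts. FLCN itself averaged 15.3 ± 2.25 CPM (read counts scaled to 1 common library size; mean ± SD, n = 3) in short-term nontarget cells, 6.06 ± 0.469 after short-term knockdown, 11.3 ± 1.23 in long-term nontarget cells and 6.99 ± 0.868 after long-term knockdown (adjusted p = 1.12e-04 and 0.00611). Of the markers checked, the defining proximal tubule genes LRP2 and HNF4A were at 0 counts in every group, CUBN, SLC34A1, AQP1 and ANPEP averaged at most 0.442 CPM, and PAX8, KRT8 and KRT18 were present. Of the markers of other cells, NPHS1 (podocyte), UMOD and SLC12A1 (thick ascending limb), KDR (endothelium) and PTPRC and CD3E (leukocyte) were at 0, while the podocyte list also held SYNPO at 61.4 to 72.8 CPM and the fibroblast list COL1A1 at 18.2 to 28.2 and PDGFRB at 0.658 to 7.41 CPM as group means. In bulk RNA, fewer cells of a kind and less RNA per cell cannot be told apart.

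Per kb of exon, and averaged over the 12 libraries, the highest levels belonged to receptors. NCOA4, the receptor that carries ferritin to the autophagosome, stood at 91.0 CPM per kb and SQSTM1 at 47.8. The ATG8 genes MAP1LC3B (26.5), GABARAPL2 (23.8) and GABARAPL1 (23.4) followed, and most of the machinery lay lower, from 18.3 for ATG101 down to 1.24 for TECPR1. ULK2 was the lowest tested member, at 0.106 CPM per kb. MAP1LC3A had 0 counts in all 12 libraries, which allows up to 0.0359 CPM over their summed depth, and was not tested, which left 40 members. A few levels carry reads that cannot be assigned with certainty. GABARAP shared 55.7% of its exon bases with AC120057.2 and AC120057.3 and averaged only 5.57 CPM, and ATG10 (26.3 CPM per kb) shared 374 exon bases with the ribosomal protein gene RPS23.

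TFEB and TFE3 bind the CLEAR element, whose core is TCACGTGA, so the promoters of the members (RefSeq, GRCh38.p14, 250 bases before to 50 bases after the start) were searched on both strands. Of the 41 members, 37 had a promoter in the table, and MAP1LC3A, RB1CC1, UVRAG and ATG4D did not. TCACGTGA was found in 1 of 37 (2.7%, against 1.04% of all 27305 promoters), TCACGTG, which lies within it, in 2 (5.41% against 3.82%), and the shorter CACGTG, within both, in the same 2 (5.41% against 7.43%). These were ATG3, the enzyme that attaches ATG8 proteins to lipid, and ATG14, a subunit of the 3-kinase complex. The full TCACGTGA belonged to ATG3 and lay after the start, 4 bases past its first base, and is not printed, and the matches upstream of their starts are shown, 5′ to 3′ on the gene's own strand with the motif in capitals, since they are the members' only ones upstream, each of 7 bases: 19 bases before the start of ATG3 at chr3:112561964-112561991 (minus strand), and 21 before that of ATG14 at chr14:55411835-55411862 (minus strand).
ATG3: ctttctcacgTCACGTGccgggagagtc
ATG14: aaacaaaatccCACGTGActggctctcc
Neither gene passed the test in any comparison. The promoter of SQSTM1 held no match in this window, nor did that of NCOA4.

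Knockdown changed few of these genes, in about the share seen over all genes. After short-term knockdown 5 of the 40 tested members (12.5%) passed an adjusted p of 0.05, 4 higher (SQSTM1, NCOA4, ATG9A, ATG4B) and 1 lower (ULK2), where 10.3% of all 13959 genes passed (5.62% higher, 4.71% lower). After long-term knockdown 9 members passed (22.5%), 3 higher (SQSTM1, GABARAP, PIK3C3) and 6 lower (OPTN, MAP1LC3B, TMEM41B, ULK2, ATG16L1, ATG13), where 29.5% of all genes passed (13.7% higher, 15.8% lower). The median log2 change of the members was 0.03 short-term and −0.02 long-term, beside −6.86e-05 and 9.51e-04 for all genes. ULK2 entered the test only through its level in the short-term nontarget libraries, and without it 4 of 39 members passed short-term (10.3%) and 8 of 39 long-term (20.5%). Apart from ULK2, SQSTM1 was the member called in both. In long-term cells replicate numbers were taken to pair the samples, which the labels do not state. There a fit with the replicate as a block called 12 members (30%, where 36.8% of all genes passed). It added VMP1, WIPI2 and ATG4A, all higher. Of the 40, 23 (57.5%) had the same sign in both comparisons, which share no library, beside 58.2% of all genes. The plot of members by role shows most of them within 0.3 log2 units of 0.

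**Figure D1:**
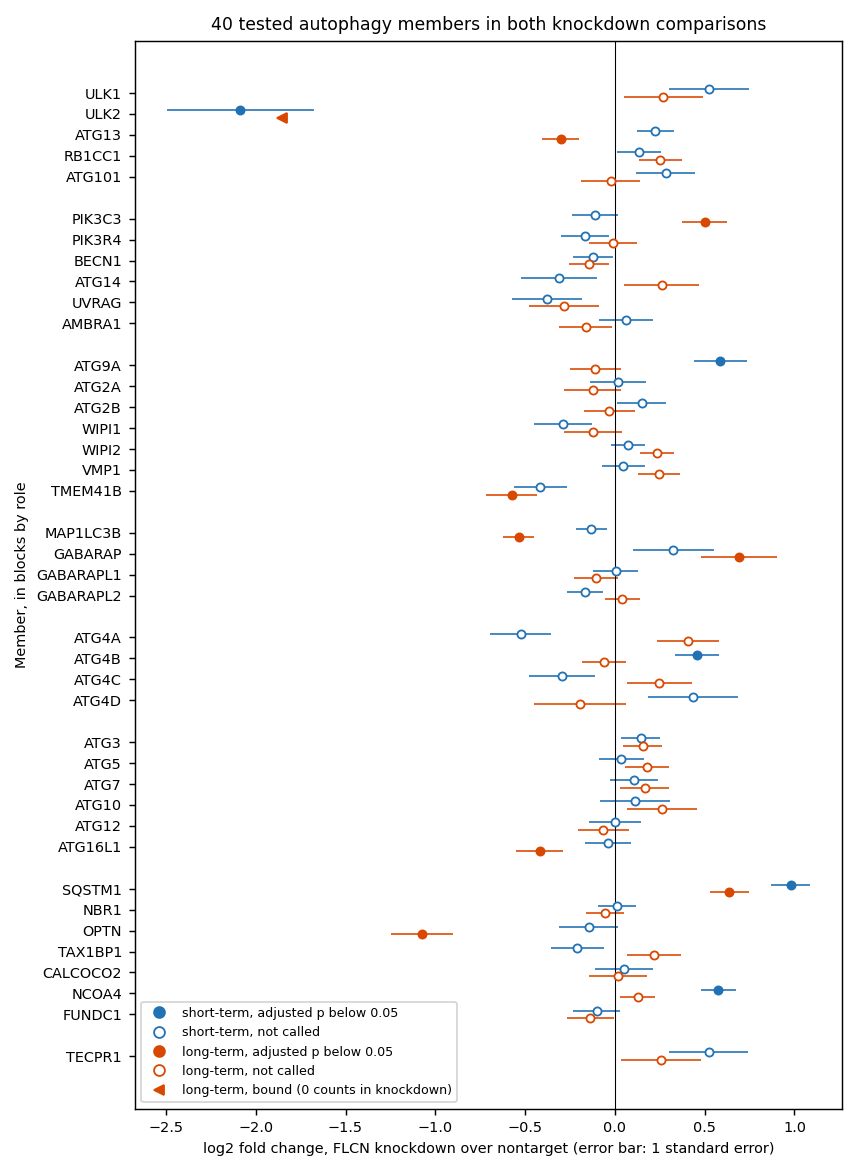
Log2 fold change of the 40 tested members (rows, in blocks by role) in short-term (blue) and long-term (orange) FLCN knockdown over nontarget cells, with bars of 1 standard error and filled points for an adjusted p below 0.05. SQSTM1 lies right of 0 in both at 0.98 and 0.64, and OPTN lies at −1.07 only in the long-term comparison. The triangle for ULK2 is the bound of 3.62-fold lower from a floor of 3 counts, since its long-term knockdown libraries held 0 counts.

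Among the 7 receptors, SQSTM1 was higher at both times. SQSTM1 (chr5:179806398-179838078, GRCh38, plus strand), which links ubiquitinated cargo to ATG8 proteins, measured 263, 281 and 259 CPM in the short-term nontarget libraries and 504, 486 and 592 CPM after short-term knockdown. In long-term cells it measured 232, 268 and 283 CPM without and 383, 379 and 458 CPM with knockdown. Every knockdown library lay above every nontarget library of either time. The level rose 1.97-fold short-term (log2 change 0.98 ± 0.11, here and below ± 1 SE, adjusted p = 1.72e-05) and 1.56-fold long-term (0.64 ± 0.11, adjusted p = 2.36e-04). The test of the difference between both effects gave −0.34 ± 0.15 with an adjusted p of 0.163. The 37 tested genes taken as neighbours of SQSTM1, near the end of the long arm of chromosome 5, had a median log2 change of 0.44 short-term (32 of 37 above 0) and 0.52 long-term (34 of 37), against chromosome medians of 0.11 and 0.13. SQSTM1 thus stood 0.54 above its neighbours short-term and 0.11 long-term, and their part in the result was not tested. In exons it shared 1582 bases with MRNIP and 105 with MGAT4B, whose levels averaged 72.4 and 174 CPM.

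NCOA4 (chr10:46005088-46030714, GRCh38, minus strand) was higher after short-term knockdown, and its long-term comparison did not pass. Its short-term nontarget libraries had 328, 344 and 375 CPM and the short-term knockdown libraries 522, 535 and 502 CPM. The groups did not overlap, with a rise of 1.49-fold (0.57 ± 0.10, adjusted p = 8.70e-04), while the neighbours' median was 0.12. Long-term libraries had 315, 296 and 273 CPM without and 347, 332 and 285 CPM with knockdown, which overlap. The effects of the 2 times differed by −0.45 ± 0.14 (adjusted p = 0.0389), a call lost without 8 of the 12 libraries taken singly (adjusted p = 0.0518 to 0.113).

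OPTN (optineurin, chr10:13099449-13138308, GRCh38, plus strand), a receptor for damaged mitochondria and bacteria, fell in long-term knockdown cells. It measured 93.8, 105 and 85.8 CPM in short-term nontarget, 86.4, 107 and 63.5 CPM in short-term knockdown, 83.6, 105 and 74.3 CPM in long-term nontarget and 40.9, 47.0 and 36.8 CPM in long-term knockdown libraries. The 3 long-term knockdown libraries were the 3 lowest of all 12. The level was 0.475 times that of long-term nontarget cells (−1.07 ± 0.17, adjusted p = 1.37e-04), and the neighbours' median was −0.02. The call held without any one library.

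The other 4 receptors, NBR1, TAX1BP1, CALCOCO2 and FUNDC1, passed in neither knockdown comparison, with log2 changes from −0.21 to 0.22. The long-term neighbours of TAX1BP1 had a median of 0.66 while TAX1BP1 itself stood at 0.22. Summed over the 7 receptors, the libraries reached 996 to 1053 CPM in short-term nontarget, 1406 to 1466 CPM in short-term knockdown, 865 to 946 CPM in long-term nontarget and 1018 to 1076 CPM in long-term knockdown cells. SQSTM1 and NCOA4 made up 59.3% to 64.3% of this sum in nontarget libraries, 69.6% to 77.8% after short-term and 66.1% to 73.0% after long-term knockdown. Within 3 of the groups, short-term knockdown and both long-term ones, replicate 3 was the library with the highest SQSTM1 and the lowest OPTN.

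**Figure D2:**
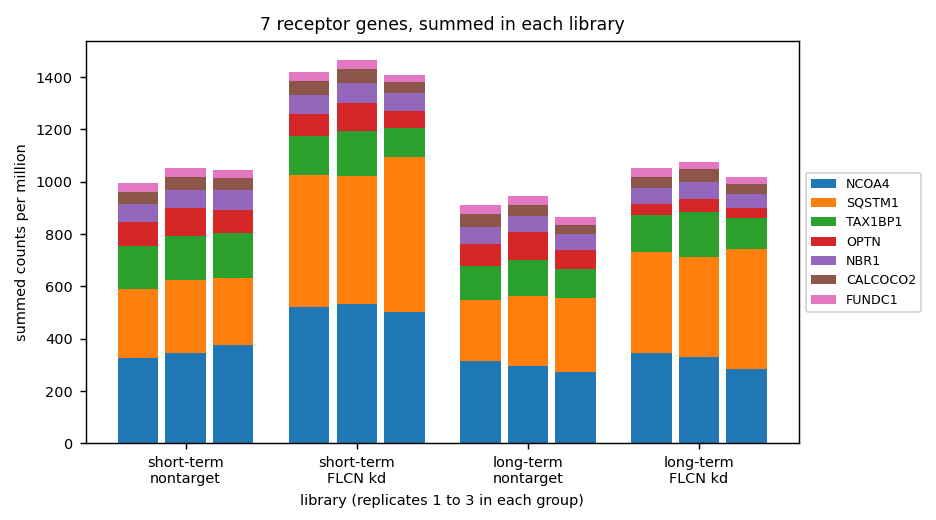
Summed CPM of the 7 receptor genes in each library, stacked by gene, with replicates 1 to 3 of each group side by side. The short-term knockdown libraries reach 1406 to 1466 CPM, and the blue (NCOA4) and orange (SQSTM1) parts hold most of every bar.

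In the initiation complex (ULK1, ULK2, ATG13, RB1CC1, ATG101) the members called in a knockdown comparison were lower. ULK2 (chr17:19770829-19867936, GRCh38, minus strand), a kinase related to ULK1, was at the edge of detection. It measured 2.73, 2.88 and 3.30 CPM in short-term nontarget libraries, 0.886, 0.439 and 0.708 CPM after short-term knockdown, 0.268, 0.465 and 0.776 CPM in long-term nontarget libraries and 0 in all 3 long-term knockdown libraries. These are 60, 14, 11 and 0 counts per group. Only the 3 short-term nontarget libraries passed the level asked for by the low-count filter, so ULK2 was tested because it was high there, and any comparison with that group is a description. Short-term knockdown gave 0.235 times the nontarget level (log2 change −2.09). Long-term, a floor of 3 counts over the group, set against the 11 nontarget counts as observed, gave a level 3.62-fold lower. The counting error of those 11 is not covered. ULK2 passed the test there (adjusted p = 0.00524). Its neighbours' medians were 0.02 and −0.08.

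ATG13, the adaptor that joins the kinase to the rest of the complex, measured 89.3, 81.9 and 96.6 CPM in short-term nontarget and 106, 93.9 and 113 CPM in short-term knockdown libraries. In long-term cells it had 98.1, 94.8 and 101 CPM without and 75.1, 77.8 and 86.0 CPM with knockdown, which do not overlap. The long-term change was 0.812-fold (−0.30 ± 0.10, adjusted p = 0.0358). The call was lost without short-term nontarget replicate 1 (adjusted p = 0.0511), any long-term nontarget replicate (0.0644, 0.0509 and 0.0850) or long-term knockdown replicate 1 or 2 (0.129 and 0.0912). RB1CC1, the scaffold also called FIP200, ULK1 and ATG101 passed in neither comparison. ULK1 measured 23.9, 21.9 and 25.3 CPM in short-term nontarget and 26.2, 33.8 and 42.8 CPM in short-term knockdown libraries, a log2 change of 0.52 ± 0.22 that did not pass (adjusted p = 0.170).

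Among the 6 genes of the 3-kinase complex, PIK3C3 (VPS34, the lipid kinase itself; chr18:41955206-42087830, GRCh38, plus strand) was called. It measured 55.0, 54.1 and 58.9 CPM in short-term nontarget and 51.5, 57.3 and 46.5 CPM in short-term knockdown libraries, which overlap. Long-term libraries had 53.5, 50.2 and 42.0 CPM without and 74.7, 72.8 and 58.0 CPM with knockdown, which do not. It rose 1.41-fold long-term (0.50 ± 0.13, adjusted p = 0.00569), with a neighbours' median of −0.03. PIK3R4, BECN1, ATG14, UVRAG and AMBRA1, the regulatory subunits and their partners, ranged from −0.38 to 0.06 short-term and from −0.28 to 0.26 long-term, and none passed.

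The 7 genes of membrane supply gave 1 call at each time. ATG9A, the lipid scramblase of the seed vesicles, had 54.0, 48.8 and 45.9 CPM in short-term nontarget libraries and 68.1, 63.2 and 92.7 CPM after short-term knockdown, without overlap. It rose 1.502-fold (0.59 ± 0.15, adjusted p = 0.0146), and its chromosome 2 neighbours had a median of 0.46 (38 of 40 above 0), against a chromosome median of 0.31, so ATG9A stood 0.13 above its neighbours. The call was lost without short-term nontarget replicate 2 or 3 (adjusted p = 0.0606 and 0.0696) or short-term knockdown replicate 3 (0.0706). Long-term libraries overlapped, at 67.0, 65.0 and 78.3 CPM without and 61.4, 58.1 and 76.2 CPM with knockdown. By the annotation ATG9A shared 38.8% of its exon bases with AC068946.2.

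TMEM41B (chr11:9280654-9314780, GRCh38, minus strand), another scramblase, measured 46.4, 31.3 and 36.5 CPM in long-term nontarget and 23.0, 26.0 and 28.0 CPM in long-term knockdown libraries. The change was 0.671-fold (−0.58 ± 0.14, adjusted p = 0.00520). Short-term it had 27.6, 31.1 and 27.2 CPM without and 20.9, 21.6 and 21.9 CPM with knockdown, groups that did not overlap, but the change of −0.42 ± 0.15 did not pass (adjusted p = 0.0880). ATG2A, ATG2B, WIPI1, WIPI2 and VMP1 passed in neither comparison. With the replicate block, WIPI2 passed long-term (95.2, 99.6 and 102 against 112, 107 and 130 CPM, log2 change 0.23, adjusted p = 0.0344). So did VMP1 (117, 104 and 94.4 against 142, 122 and 109 CPM, 0.24, adjusted p = 0.0464). Both were higher with knockdown in each of the 3 same-numbered pairs. WIPI1 stood at −0.12 long-term although its neighbours on chromosome 17 had a median of 0.51.

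Of the ATG8 genes, MAP1LC3B, the source of the LC3 protein used to follow autophagosomes, fell long-term. MAP1LC3B (chr16:87383995-87404779, GRCh38, plus strand) measured 168, 157 and 160 CPM in short-term nontarget, 146, 151 and 146 CPM in short-term knockdown, 155, 152 and 144 CPM in long-term nontarget and 108, 103 and 99.7 CPM in long-term knockdown libraries. The long-term knockdown libraries lay below the other 9. The long-term change was 0.690-fold (−0.54 ± 0.09, adjusted p = 1.33e-04), with a neighbours' median of −0.10, and it held without any one library.

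GABARAP had 4.82, 3.72 and 5.69 CPM in long-term nontarget and 8.32, 7.34 and 7.46 CPM in long-term knockdown libraries, without overlap. It rose 1.62-fold (0.69 ± 0.21, adjusted p = 0.0192), beside a neighbours' median of 0.43 on chromosome 17 (35 of 40 above 0). The call was lost without long-term nontarget replicate 2 (adjusted p = 0.0968), without long-term knockdown replicate 1 (0.0810) and in DESeq2. Short-term it had 4.65, 4.86 and 3.61 CPM without and 6.20, 5.70 and 4.42 CPM with knockdown, which overlap. GABARAPL1 and GABARAPL2 passed in neither, with log2 changes from −0.17 to 0.04.

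The 4 ATG4 proteases trim ATG8 proteins before they are joined to lipid and release them afterwards. ATG4B measured 56.0, 48.8 and 54.4 CPM in short-term nontarget and 69.8, 67.7 and 81.2 CPM in short-term knockdown libraries, without overlap. It rose 1.37-fold (0.46 ± 0.12, adjusted p = 0.0226), while its neighbours near the end of the long arm of chromosome 2 had a median of 0.43 (23 of 23 above 0). The call was lost without any short-term nontarget replicate (adjusted p = 0.0512, 0.116 and 0.0568) or short-term knockdown replicate 3 (0.0846). Long-term it was at 56.3, 62.7 and 70.1 CPM without and 58.1, 54.4 and 69.0 CPM with knockdown. ATG4A, ATG4C and ATG4D passed in neither comparison, but with the replicate block ATG4A was higher long-term (log2 change 0.40, adjusted p = 0.0480).

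The conjugation machinery (ATG3, ATG5, ATG7, ATG10, ATG12, ATG16L1), which joins ATG8 proteins to the membrane, gave 1 call in the 2 comparisons. ATG16L1, which places the conjugating complex on the membrane, had 30.2, 42.3 and 32.1 CPM in long-term nontarget and 25.2, 26.1 and 26.8 CPM in long-term knockdown libraries. It was 0.748-fold (−0.42 ± 0.13, adjusted p = 0.0212). The difference was lost without long-term nontarget replicate 2, the highest library (adjusted p = 0.130), and without long-term knockdown replicate 1 (0.0733). Short-term it stood at −0.04, with 34.5, 36.0 and 36.5 CPM against 35.9, 34.8 and 33.1 CPM, although its chromosome 2 neighbours had a median of 0.38. The other 5 genes ranged from 0.00 to 0.14 short-term and from −0.06 to 0.26 long-term. TECPR1, a tether of autophagosomes to lysosomes, changed by 0.52 ± 0.22 short-term (adjusted p = 0.157).

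**Figure D3:**
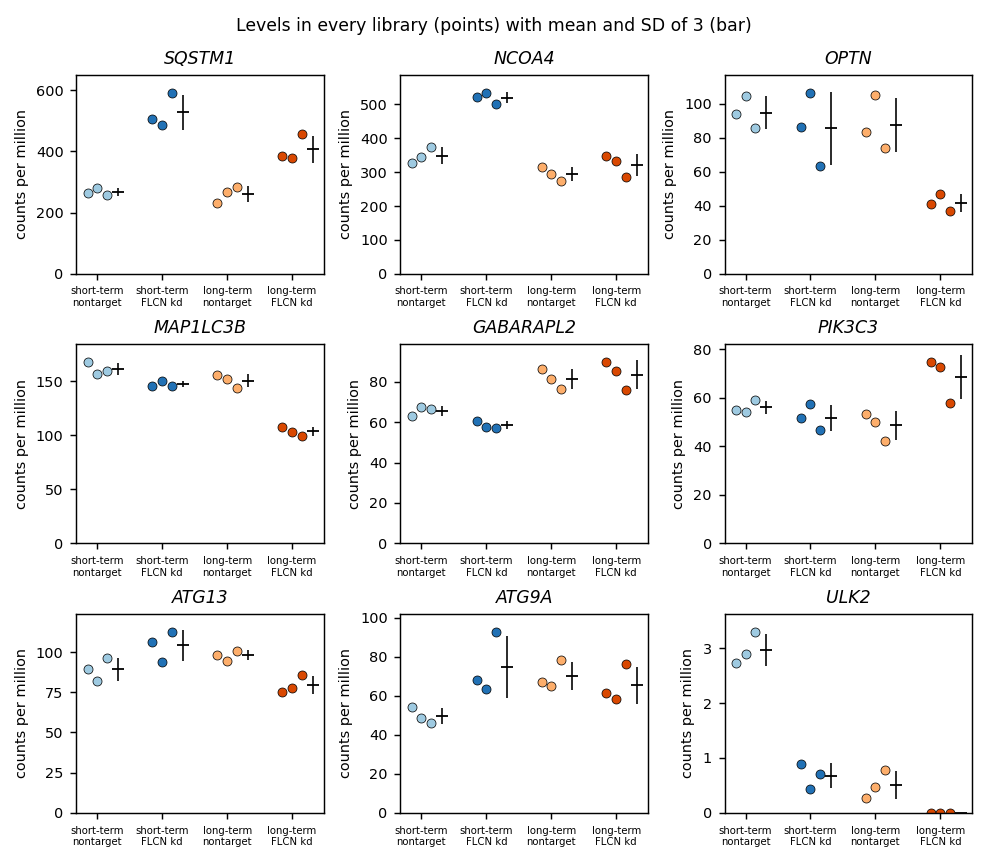
CPM in each library (points, 3 per group) with the mean and SD of each group (bars) for 9 members, each panel on its own axis from 0. SQSTM1 is higher in every knockdown library, OPTN and MAP1LC3B are lowest in the long-term knockdown libraries, and ULK2 falls from about 3 CPM to 0.

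Set beside their neighbourhoods, 3 of the 5 members called short-term (SQSTM1, ATG9A, ATG4B) and 2 of the 9 called long-term (SQSTM1, GABARAP) had neighbours whose median passed 0.3, all in the member's direction. Of the 4 members with such neighbours short-term, 1 was not called (ATG16L1), and of the 5 long-term, 3 were not (WIPI1, TAX1BP1, TECPR1). All 6 members that fell long-term had neighbours' medians between −0.12 and −0.01. Their part in the results of these members was not tested.

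**Figure D4:**
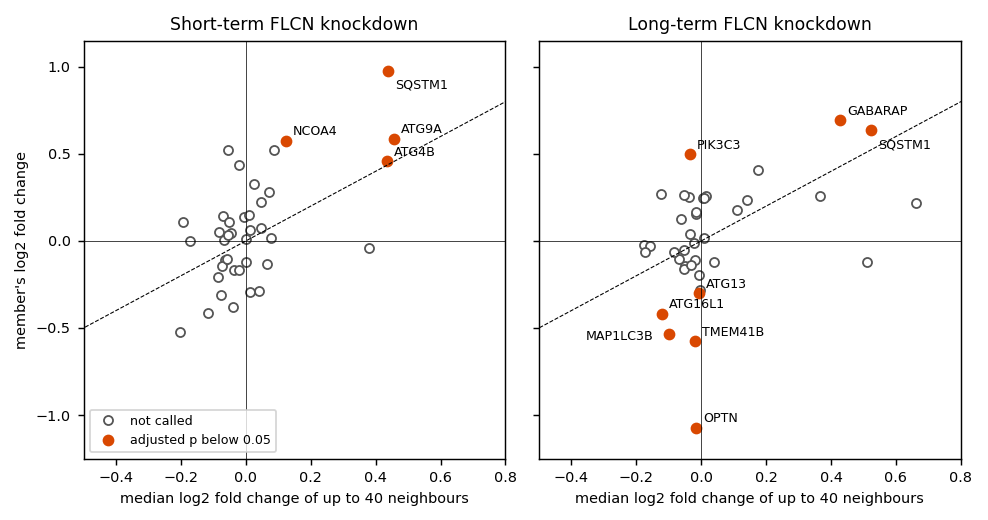
Log2 fold change of each member (vertical axis) against the median of its tested neighbours (horizontal axis, up to 40 genes, 37 for SQSTM1 and 23 for ATG4B), short-term on the left and long-term on the right, with ULK2 left out and the dashed line at equality. SQSTM1, ATG9A and ATG4B lie at neighbours' medians of 0.43 to 0.46 in the left panel, while OPTN, TMEM41B and MAP1LC3B lie near 0 on the horizontal axis in the right panel.

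Time in culture was compared within nontarget and within knockdown cells, using the same libraries as the knockdown comparisons. In nontarget cells 4 of 40 members passed (10%), ATG9A higher and ULK2, ATG2B and ATG4A lower, where 7.55% of all genes passed (3.17% higher, 4.38% lower). In knockdown cells 11 passed (27.5%), 3 higher and 8 lower, where 26.6% of all genes passed (11.5% higher, 15.2% lower). Without ULK2 these are 3 of 39 (7.69%) and 10 of 39 (25.6%). With the replicate block, knockdown cells gave 14 (35%, where 34.4% of all genes passed), adding VMP1 (log2 change 0.27, adjusted p = 0.0285), ATG4B (−0.27, 0.0348) and ATG4D (−0.49, 0.0473). The members' median log2 change was −0.06 and −0.08. SQSTM1 stayed at −0.03 ± 0.11 in nontarget cells (adjusted p = 0.924) and fell to 0.771-fold in knockdown cells (−0.37 ± 0.11, adjusted p = 0.0155), a call lost without short-term knockdown replicate 3 (adjusted p = 0.0665) or long-term knockdown replicate 1 or 2 (0.0630 and 0.0674).

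Within knockdown cells, NCOA4 fell to 0.619-fold with time (−0.69 ± 0.10, adjusted p = 4.36e-05), OPTN to 0.486-fold (−1.04 ± 0.17, adjusted p = 2.25e-04) and MAP1LC3B to 0.703-fold (−0.51 ± 0.09, adjusted p = 2.76e-04), by the values given above. ULK2 was 4.89-fold lower with the floor of 3 counts set against the 14 observed (adjusted p = 0.00238), and ATG13 was 0.763-fold (−0.39 ± 0.10, adjusted p = 0.00929). ATG2B (chr14:96279202-96363870, GRCh38, minus strand), a lipid transfer protein, had 29.4, 28.4 and 36.0 CPM in short-term nontarget, 37.8, 35.0 and 30.8 CPM in short-term knockdown, 22.9, 22.4 and 19.9 CPM in long-term nontarget and 23.8, 21.3 and 18.5 CPM in long-term knockdown libraries. Every long-term library lay below every short-term one. The change was −0.70 ± 0.14 in knockdown (adjusted p = 0.00118) and −0.52 ± 0.14 in nontarget cells (adjusted p = 0.0292), with neighbours' medians of −0.45 and −0.31, and the second was lost without short-term nontarget replicate 1 or 3 (adjusted p = 0.0639 and 0.148) or long-term nontarget replicate 2 or 3 (0.0656 and 0.107).

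GABARAPL2 (chr16:75566351-75577881, GRCh38, plus strand) moved the other way. It measured 62.9, 67.7 and 66.5 CPM in short-term nontarget, 60.7, 57.5 and 57.3 CPM in short-term knockdown, 86.3, 81.3 and 76.6 CPM in long-term nontarget and 89.8, 85.2 and 76.0 CPM in long-term knockdown libraries. Long-term libraries lay above all short-term ones, by 1.43-fold in knockdown cells (0.52 ± 0.10, adjusted p = 8.59e-04) and by 0.31 ± 0.10 on the log2 scale in nontarget cells, which did not pass (adjusted p = 0.0689). In long-term nontarget cells ULK2 stood at 0.176 times the short-term level that brought it into the test. ATG4A had 15.4, 18.4 and 16.8 CPM in short-term nontarget and 12.9, 10.5 and 9.06 CPM in long-term nontarget libraries (−0.64 ± 0.17, adjusted p = 0.0261), a call lost without any short-term nontarget replicate (adjusted p = 0.0512, 0.120 and 0.0680) or long-term nontarget replicate 2 or 3 (0.0803 and 0.115). ATG9A rose 1.42-fold in nontarget cells with time (0.50 ± 0.15, adjusted p = 0.0442), but without any library of either nontarget group, short-term knockdown replicate 1 or long-term knockdown replicate 1 or 2 the adjusted p was 0.0522 to 0.184. PIK3C3, RB1CC1 and ATG16L1 were the other members called in knockdown cells, with log2 changes of 0.40, 0.36 and −0.41 and neighbours' medians of 0.12, −0.01 and −0.39. PIK3C3 lost its call without short-term knockdown replicate 1 or 3 or long-term knockdown replicate 1 or 2 (adjusted p = 0.0668 to 0.118), and ATG16L1 without replicate 1 or 2 of either knockdown group (0.0572 to 0.0836). RB1CC1 lost it without replicate 2 of either nontarget group, short-term knockdown replicate 1 or 3 or long-term knockdown replicate 1 or 2 (0.0531 to 0.188).

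The test of whether the effect of knockdown differed between long-term and short-term cells passed for 7 of 40 members (17.5%), 2 with a more positive long-term effect (ATG4A, PIK3C3) and 5 with a more negative one (OPTN, ATG9A, ATG13, NCOA4, MAP1LC3B), where 13.4% of all genes passed (4.98% positive, 8.43% negative). This test uses groups taken as paired and groups that were not. With the replicate block 9 passed (22.5%, where 20.6% of all genes passed). Added were TAX1BP1 (difference 0.44, adjusted p = 0.0340, against 0.214 without the block) and ATG4B (−0.51, adjusted p = 0.0104, against 0.0558). ATG4A measured 12.2, 12.6 and 10.3 CPM in short-term knockdown and 16.1, 14.7 and 12.04 CPM in long-term knockdown libraries, so its knockdown effect was −0.53 ± 0.17 short-term (adjusted p = 0.0567) and 0.41 ± 0.17 long-term (adjusted p = 0.0836). The difference between these effects was 0.93 ± 0.24 (adjusted p = 0.0137), beside a neighbours' median of 0.40, and it did not pass without long-term knockdown replicate 1 (adjusted p = 0.0513). For OPTN it was −0.93 ± 0.24 (adjusted p = 0.0137), beside 0.15, and of the 7 this was the call that held without any one library.

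**Figure D5:**
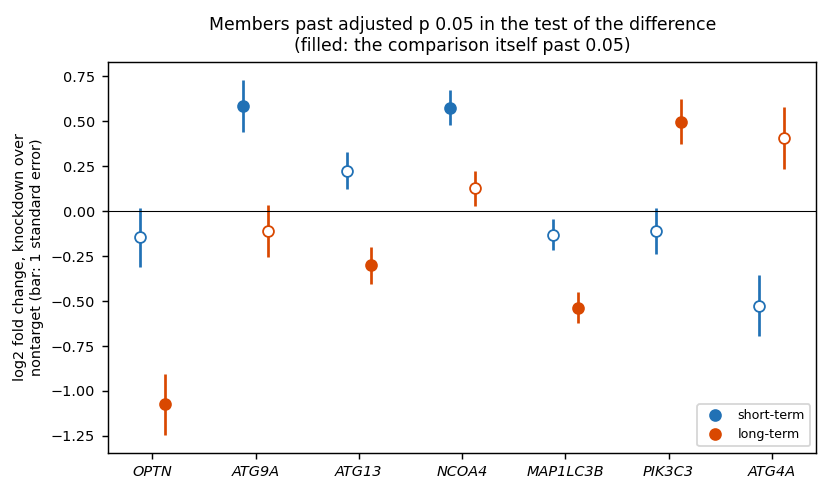
Log2 fold change of knockdown over nontarget cells short-term (blue) and long-term (orange) for the 7 members that passed the test of the difference, with bars of 1 standard error and filled points where the comparison itself passed. OPTN, MAP1LC3B and PIK3C3 are filled only long-term, ATG9A and NCOA4 only short-term, and ATG4A at neither time.

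The other genes of the pathway, 56 on a list of further core genes, receptors, fusion proteins and regulators (FLCN included), had 49 tested. Short-term 9 passed (18.4%), 5 higher and 4 lower, and long-term 16 passed (32.7%), 3 higher and 13 lower, with medians of 0.02 and −0.06. FLCN, lower by design, is counted among those lower at both times. Over all genes, 10.3% passed short-term and 29.5% long-term (13.7% higher, 15.8% lower). FNIP2, a partner of FLCN, went from 1.09 ± 0.14 short-term (adjusted p = 7.44e-05) to −1.13 ± 0.15 long-term (adjusted p = 2.06e-05). RRAGD, a Rag GTPase and target of TFEB and TFE3, rose by 1.125 ± 0.17 short-term (adjusted p = 4.02e-04) and fell by 0.68 ± 0.21 long-term (adjusted p = 0.0215). FOXO3, a transcription factor of autophagy genes, was lower at both times (−0.82 ± 0.13 and −0.94 ± 0.13, adjusted p = 3.32e-04 and 1.83e-05), as was TP53INP1 (−1.08 ± 0.23 and −1.69 ± 0.24, adjusted p = 0.00497 and 3.23e-05), which binds ATG8 proteins. ZFYVE1, a marker of the membrane sites where autophagosomes form, rose by 0.61 ± 0.12 short-term (adjusted p = 0.00231). Long-term, PINK1, the kinase that marks damaged mitochondria, fell by 1.08 ± 0.13 (adjusted p = 7.52e-06), and EPG5, a tether for fusion with lysosomes, fell by 1.02 ± 0.13 (adjusted p = 1.39e-05).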

How the data were processed

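RNA-seq was analysed from 12 libraries of HK2 cells in 4 groups of 3. Per the study's methods, the authors made TruSeq v2 libraries, sequenced them on a MiSeq, trimmed reads with fastp, mapped them with STAR and counted them per gene with featureCounts on GRCh38 (the build in the submitters' processing notes). Versions, annotation release and strand setting are not given in the sources used here. The deposited values have the unit count, and the deposited normalized columns, given the unit score, equal count divided by a factor per library (100% within 1) and were used for that check alone.

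The tests were run in edgeR 4.0.16 under R 4.3.3: filterByExpr (13959 genes, 99.8% of counts), TMM factors, and a robust quasi-likelihood fit of all 12 libraries with 1 term per group and a prior count of 0.125. Two-sided p-values were corrected by the Benjamini-Hochberg method across every gene tested, and a gene was called at an adjusted p below 0.05 with no limit on fold. The SE is the log2 change over the square root of F. CPM uses TMM-scaled totals. Replicates differed by more than counting error (chi-square per degree of freedom 2.07 to 11.9), and the biological coefficient of variation was 12%. Floors of 3 counts cover counting error only, and only of the 0 counts. The reference counts of ULK2 (11 and 14) were taken as observed. Neighbours are up to 40 tested genes, 20 on each side of a member where its chromosome has them (37 for SQSTM1, 23 for ATG4B). Genes were matched to GENCODE 29 on GRCh38, and coordinates are printed where the ID version matched. The fits were tested on counts simulated from their own fitted spread, with no pairing of replicates and no difference between clones.

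The members and lists were chosen with earlier results of these data known. Every member could be named. Values in every library are given for SQSTM1 and for called members, at most the 8 with the smallest adjusted p of each comparison and 5 of the interaction, and of the other pathway genes at most 5 of each knockdown comparison are named. ULK1, WIPI2 and VMP1 were added after their values were seen.

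Same-numbered replicates deviated together long-term (r = 0.28, 0.12 and 0.46 over genes) and between the knockdown groups (0.22, 0.29 and 0.46). There the number was taken to pair samples, although the labels state no pairing. In the long-term comparison, nontarget replicate 1 and knockdown replicate 2 reached r = 0.23, above the 0.12 of both replicates 2. The pairing of replicates 1 and 2 is thus not resolved there. Alternatives were RLE factors, DESeq2 1.42.0, no filter, a mean of 10 CPM, the replicate block, only the groups compared, the per-library files, fold limits and leaving out each library.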

Additional observations from a re-analysis of the deposited data

Results flagged for a closer look

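For 7 members the effect of knockdown (log2 fold change over nontarget cells) differed between long-term and short-term cells by edgeR's quasi-likelihood test of the interaction, at an adjusted p below 0.05, and each value below is the long-term minus the short-term effect. OPTN stood at −0.93 (adjusted p = 0.0137), and its call held without any one of the 12 libraries and in every other fit. ATG4A stood at 0.93 (adjusted p = 0.0137), lost without long-term knockdown replicate 1 (0.0513). PIK3C3 stood at 0.61 (adjusted p = 0.0295), lost without any short-term nontarget replicate, replicate 1 or 3 of short-term knockdown, long-term nontarget replicate 3, or replicate 1 or 2 of long-term knockdown (0.05 to 0.0925). ATG9A stood at −0.69 (adjusted p = 0.0313), beside a neighbours' median of −0.49, lost without replicate 2 or 3 of short-term nontarget, replicate 3 of short-term knockdown or of long-term nontarget, or replicate 1 or 2 of long-term knockdown (0.0701 to 0.0830). ATG13 stood at −0.53 (adjusted p = 0.0223), lost without replicate 1 or 2 of short-term nontarget or of long-term knockdown, or replicate 1 of short-term knockdown (0.05 to 0.0736). NCOA4 stood at −0.45 (adjusted p = 0.0389), lost without replicate 1 or 2 of short-term nontarget, short-term knockdown or long-term nontarget, or replicate 2 or 3 of long-term knockdown (0.0518 to 0.113). MAP1LC3B stood at −0.41 (adjusted p = 0.0336), lost without any short-term nontarget replicate, replicate 1 or 2 of short-term knockdown or of long-term nontarget, or replicate 2 or 3 of long-term knockdown (0.0536 to 0.0923).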

How the results depend on the processing

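No called result changed direction in any alternative. The uncalled change of SQSTM1 over time in nontarget cells (−0.03) ran from −0.10 to 0.04 as single libraries were left out. The counts of members called after short-term knockdown, after long-term knockdown, over time in nontarget cells, over time in knockdown cells and in the test of the difference (5, 9, 4, 11 and 7) became 3, 4, 2, 4 and 4 with a fold of at least 1.5, and 1, 2, 1, 2 and 0 with a fold of at least 2. Shares of all genes were not counted at these fold limits, at 10 CPM or with 1 library left out. These counts therefore show nothing particular to the members. At 2-fold the call short-term and the call over time in nontarget cells were ULK2, which was tested only through the short-term nontarget libraries and so supports nothing there, and it was also the 1 member at that fold with an unadjusted edgeR p below 0.05 in the test of the difference. When genes had to average 10 CPM the counts were 4, 7, 2, 10 and 7, ULK2 and GABARAP no longer being tested and ATG9A losing its call over time in nontarget cells. Leaving out 1 library at a time gave 3 to 7 (fewest without short-term nontarget replicate 2), 6 to 11 (without long-term nontarget replicate 2), 1 to 5 (without short-term nontarget replicate 1), 7 to 14 (without long-term knockdown replicate 1) and 2 to 6 (without short-term nontarget replicate 2). With the replicate number as a block the counts were 7, 12, 6, 14 and 9, and every member called without the block kept its call. These are 17.5%, 30%, 15%, 35% and 22.5% of the members, where 16.9%, 36.8%, 12.8%, 34.4% and 20.6% of all genes passed. Where the number was not taken to pair samples, the block added ATG4A and ULK1 short-term and GABARAPL2 and TAX1BP1 over time in nontarget cells. Same-numbered samples deviated together only weakly in the short-term comparison (r = 0.02, 0.11 and 0.05) and between nontarget groups (−0.03, 0.08 and 0.03), so there the block has no pairing behind it. Calls lost in another fit were GABARAP long-term in DESeq2 (adjusted p = 0.0541), ATG13 long-term with no filter (0.0848) or only the groups compared (0.0622), ATG16L1 long-term (0.0648), and PIK3C3 and RB1CC1 over time in knockdown cells (0.0594 and 0.0781) with only the groups compared, ATG9A over time in nontarget cells at a mean of 10 CPM (0.0581), and the differences of MAP1LC3B and NCOA4 with no filter (0.144 and 0.0615). The causes were not tested. RLE factors and the per-library files gave the same counts, and the FLCN tests kept their side of the threshold. Depth limits ULK2, with at most 60 counts in a group, and MAP1LC3A, with 0.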
